A study of Mus musculus with 48 samples.

Results

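The acute-phase proteins described here are 10 genes of the 24010 with expression values in a study of mouse somatic cell reprogramming: *Saa1*, *Saa2*, *Saa3*, *Orm1*, *Hp*, *Cp*, *Lcn2*, *Ltf*, *C3* and *Cfb*. They were chosen by gene name, as acute-phase genes that rose on the late days of the control arm and were lower with *Mettl3* overexpression (OE). Values in those 2 contrasts are therefore given as a description, without a test. RNA carrying a poly(A) tail was sequenced from reprogrammable mouse embryonic fibroblasts (MEFs) of transgenic mice. These mice carry an *Oct4*-GFP reporter, the doxycycline-dependent activator M2rtTA at *Rosa26* and the 4F2A cassette at *Col1a1*, and doxycycline switches on Oct4, Sox2, Klf4 and c-Myc (OSKM) in their cells. Uninduced MEFs (day 0) grew in DMEM with serum. All other cells received doxycycline at 1 µg/ml in ES medium with serum and LIF, and were taken on days 3, 6, 9, 12 and 15 as Control OE (an empty vector), *Mettl14* OE or *Mettl3* OE, so that the transgenes and OSKM are common to all 3 arms. With 3 libraries in each of 16 groups there were 48 libraries. The sources used here do not state whether replicates came from separate cultures, and p-values then measure only the spread between these libraries, which may be technical.

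Acute-phase proteins are secreted proteins whose amounts in blood plasma change during infection or injury. The liver makes most of them, after interleukin 6 (IL-6) signals through STAT3 and interleukin 1 and TNF signal through NF-kB, with the C/EBP transcription factors acting on many of their promoters. Epithelial cells and macrophages also make several of them locally, *Saa3*, *Lcn2*, *Ltf* and *C3* among them.

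Values are FPKM (fragments per kilobase of transcript per M mapped fragments), which take gene length into account, so that levels of different genes can be set side by side. Values come from 3 tables placed side by side, which hold 12 libraries (MEFs and day 3), 18 libraries (day 6, day 9) and another 18 (day 12, day 15). Between days 3 and 6, and again between days 9 and 12, the table and the day cannot be told apart. Depth, estimated from the smallest FPKM steps, was 12.3 to 35.5 M fragments per library, with *Mettl14* OE on day 15 at 15.5 to 17.8 M and Control OE on day 15 at 21.4 to 24.6 M. *Mettl14* lay at 184 to 476 FPKM in its 15 OE libraries against 4.30 to 7.47 elsewhere, and *Mettl3* at 1080.0 to 2920.0 FPKM in its 15 against 3.33 to 6.79. The summed level of 10 fibroblast markers was 214 to 226 FPKM in MEFs, below the 2190.0 to 3270.0 FPKM of the cells on day 15, which stand in another table. In bulk RNA such as this, fewer cells of a type and less RNA per cell cannot be told apart.

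In MEFs and on day 3 the members were near or at 0. *Saa1*, *Saa2*, *Orm1* and *Ltf* were listed at 0 in all 3 MEF libraries. The highest mean in MEFs was that of *Cp*, at 0.621 ± 0.058 FPKM (SD, n = 3), followed by *C3* at 0.486 ± 0.086 and *Cfb* at 0.380 ± 0.068. On day 3 the highest member value in any library of any arm was 0.251 FPKM, of *Cp* in Control OE. In Control OE the mean of each member then stood higher on each later day, apart from *Orm1*, which was listed at 0 in every Control OE library, and *Saa2*, whose mean was 0.343 FPKM on day 9 and 0.261 on day 12. *Saa1* was the most abundant of the 10 in all arms from day 6 on.

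**Figure D1:**
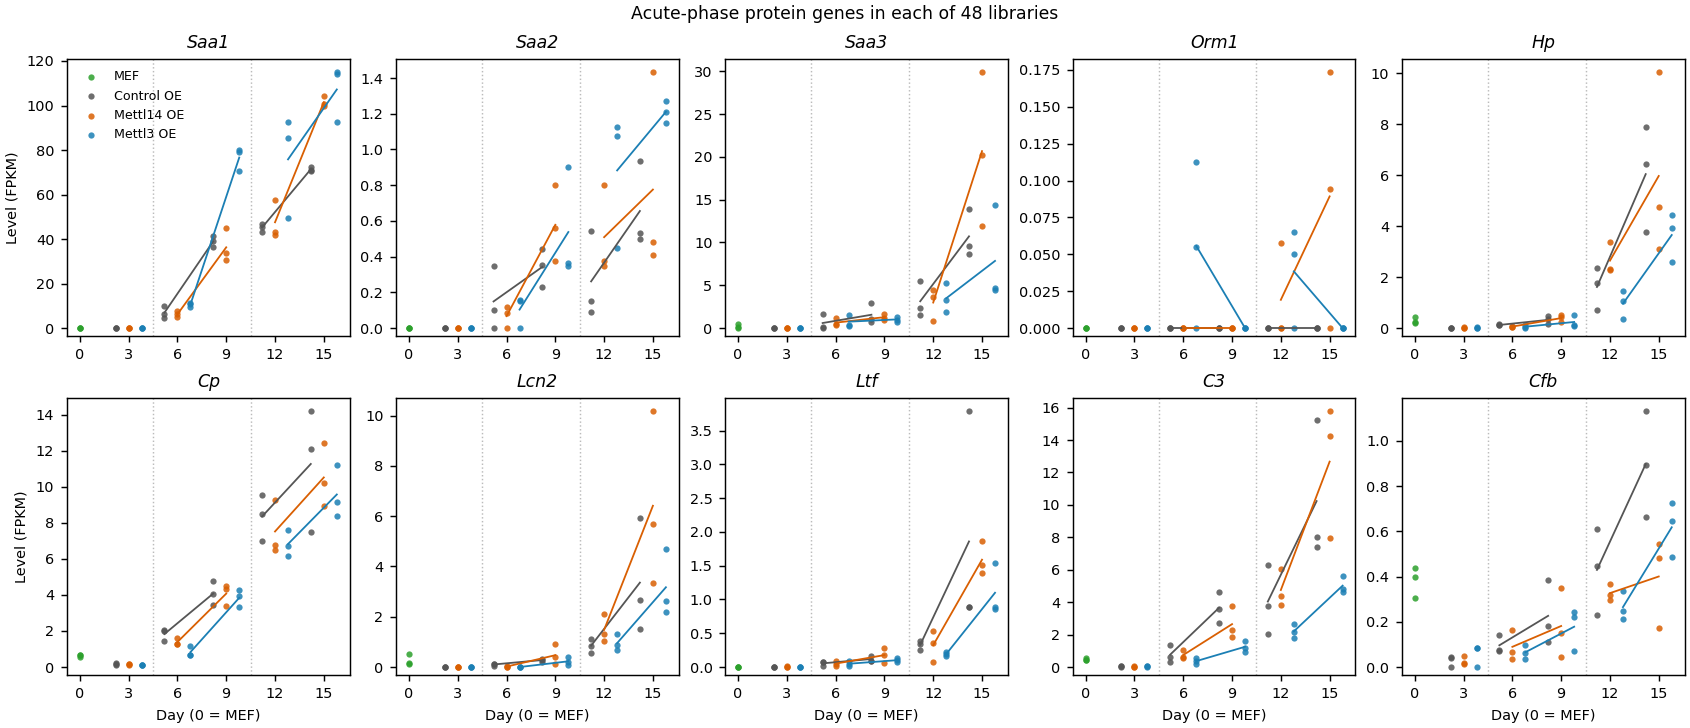
Levels of the 10 members in FPKM (vertical axis, a scale of its own for each gene) against day (horizontal axis, 0 for MEFs), 1 point per library, with lines joining group means inside a table and dotted lines where tables join. *Saa1* reached 115 FPKM and was higher in *Mettl3* OE than in Control OE on days 9, 12 and 15, whereas *C3* was lowest in *Mettl3* OE on days 9 and 15, and *Orm1* did not exceed 0.174 FPKM in any library.

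Among the serum amyloid A genes, whose products replace apolipoprotein A-I on high-density lipoprotein during inflammation, *Saa1* set in first. In Control OE it lay at 9.94, 6.16 and 4.61 FPKM on day 6 and at 36.6, 38.96 and 41.4 FPKM on day 9. It lay at 46.8, 45.3 and 43.4 FPKM on day 12 and at 70.7, 72.4 and 70.9 FPKM on day 15. Successive days did not overlap, and they came closest between days 9 and 12, where the tables join.

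*Saa2*, the neighbour of *Saa1*, remained low: its mean in Control OE on day 15 was 0.656 ± 0.242 FPKM (SD, n = 3), against 71.4 ± 0.942 for *Saa1*. A single fragment of *Saa2* is worth 0.0432 to 0.125 FPKM at the estimated depths, so that its values rest on few fragments. RefSeq lists *Saa1* as an older name of *Saa2* and the reverse, so which product each row stands for depends on the authors' annotation. The longest coding transcripts share 51 of the 560 50-base words of *Saa1* (9.11%), and reads from these stretches may have been assigned to either gene. *Saa3*, which in mice is made mainly outside the liver, shares none of these words. It lay at 2.35, 5.55 and 1.49 FPKM on day 12 in Control OE and at 8.64, 9.56 and 13.95 FPKM on day 15.

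The 3 *Saa* genes and *C3* are shown with the 5′ flanking bases that RefSeq gives for GRCm38.p6 (the deposited FPKM values were made on mm9), because *Saa1*, *Saa3* and *C3* passed the test within *Mettl14* OE given further on and *Saa2*, whose flank is almost the same as that of *Saa1*, did not. Capitals mark letters of TTGCNNAA, the core that C/EBP factors recognise, and in *C3* also of an NF-kB pattern of 10 bases (GGGA, any base, T, 2 bases of any kind, CC), on either strand. The *Saa1* window is chr7:46743031-46743230 (minus strand), *Saa2* chr7:46751583-46751782 (plus strand) and *Saa3* chr7:46715727-46715926 (minus strand), each 200 bases from 250 before the start site. The *C3* window is chr17:57228137-57228336 (minus strand), the 200 bases before its start site.
*Saa1*: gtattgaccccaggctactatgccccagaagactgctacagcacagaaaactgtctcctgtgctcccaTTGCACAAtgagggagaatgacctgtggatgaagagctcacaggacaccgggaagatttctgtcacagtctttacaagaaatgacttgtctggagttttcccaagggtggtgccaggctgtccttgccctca
*Saa2*: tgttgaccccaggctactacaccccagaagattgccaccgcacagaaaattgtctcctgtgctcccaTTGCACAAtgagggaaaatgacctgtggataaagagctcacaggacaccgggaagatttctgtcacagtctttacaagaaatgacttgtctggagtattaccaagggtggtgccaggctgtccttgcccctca
*Saa3*: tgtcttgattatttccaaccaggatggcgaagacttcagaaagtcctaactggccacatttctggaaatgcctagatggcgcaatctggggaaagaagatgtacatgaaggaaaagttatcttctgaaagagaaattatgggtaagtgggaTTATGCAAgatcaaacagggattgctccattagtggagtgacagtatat
*C3*: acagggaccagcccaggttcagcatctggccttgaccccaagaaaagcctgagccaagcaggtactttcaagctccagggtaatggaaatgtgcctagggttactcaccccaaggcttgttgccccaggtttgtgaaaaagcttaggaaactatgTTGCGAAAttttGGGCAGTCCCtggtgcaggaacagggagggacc

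Of the 10 members, 7 had a promoter window of 300 bases (250 before the start site and 50 after it) in the RefSeq table: *Saa1*, *Saa2*, *Saa3*, *Cp*, *Lcn2*, *Ltf* and *C3*. TTGCNNAA stood in a window of each of the 7, on the second of the start sites of *Cp*, and in 10.8% of 32851 mouse promoter windows of the same length. Counted from the start site, the matches began at -182 in *Saa1*, -183 in *Saa2*, -99 in *Saa3*, -216 in *Lcn2*, -75 in *Ltf*, -70 in *Cp* and -45 in *C3*. The NF-kB pattern stood only in that of *C3*, at -33, and in 4.16% of all windows. The STAT pattern TTCNNNGAA was in none of the 7 and in 8.3% of all windows. TATAAA was in those of *Cp* and *C3* and in 13.6% of all windows. Both strands were searched, with overlaps between patterns allowed, and a match is a description of letters, not a measured binding site. *Saa1* and *Saa2* do not count as separate cases here, since their flanks were identical at 238 of 251 aligned columns (94.8%), against 48.9% for *Saa1* and *Saa3*. The listed levels of these 2 genes, whose flanks are almost the same and include the same TTGCACAA, differed widely. Reads from stretches they share may have been assigned to either gene, and the cause of the difference was not tested.

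The transport proteins differed among themselves in level and time in Control OE. *Cp* encodes ceruloplasmin, the copper ferroxidase of plasma. Its mean was 1.83, 4.08, 8.35 and 11.3 FPKM on days 6, 9, 12 and 15, and its day 15 libraries (12.1, 7.51 and 14.2 FPKM) overlapped those of day 12 (9.57, 7.0 and 8.48 FPKM). *Hp* encodes haptoglobin, which binds free haemoglobin. It was below 0.46 FPKM in each Control OE library up to day 9 and reached 7.90, 3.78 and 6.44 FPKM on day 15. *Orm1*, orosomucoid or alpha-1-acid glycoprotein, was listed above 0 in 7 of the 48 libraries, all of them *Mettl14* OE or *Mettl3* OE, with a maximum of 0.174 FPKM. A single fragment of it is worth 0.0364 to 0.105 FPKM, and reads of its near copies *Orm2* and *Orm3* may have been counted with it.

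The iron-sequestering antimicrobial proteins stayed low until day 12. *Lcn2* encodes lipocalin 2, which takes up bacterial siderophores. It lay at 0.853, 1.12 and 0.573 FPKM on day 12 in Control OE and at 2.66, 1.495 and 5.92 FPKM on day 15. *Ltf* encodes lactoferrin, and lay at 0.248, 0.390 and 0.347 FPKM on day 12 and at 0.896, 0.889 and 3.79 FPKM on day 15, where replicate 3 alone exceeded 1 FPKM.

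*C3*, the central component of complement, lay at 3.79, 6.27 and 2.06 FPKM on day 12 and at 7.43, 8.05 and 15.2 FPKM on day 15. *Cfb*, the protease of the alternative pathway's C3 convertase, lay at 0.612, 0.231 and 0.445 FPKM on day 12 and at 0.894, 0.665 and 1.13 FPKM on day 15. In none of these 4 genes did the Control OE libraries of days 12 and 15 overlap. Among the 8 members with at least 1 FPKM in at least 3 of the 48 libraries (all but *Orm1* and *Cfb*), 6 were higher on day 15 than on day 12 in Control OE without overlap. Of all 12738 genes passing that filter 25.2% were, and since this rise was used to choose the members nothing is read from the count.

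Whether the members also rose within *Mettl14* OE was tested with limma on log2(FPKM + 1) over all 48 libraries, with Benjamini-Hochberg adjustment over the 12738 genes, in libraries not used to choose the members. A gene was called at an adjusted p of 0.05 and a fold of 1.5 in FPKM + 1, which is a stricter fold for genes at low FPKM. From day 12 to day 15, 6 of the 10 members were called higher and none lower, against 4.31% of all genes called higher and 0.196% called lower. *Orm1* and *Cfb* could not be tested, *Cp* was under the fold threshold and *Saa2* did not pass. *Ltf* reached 1 FPKM in 5 libraries, 3 of them *Mettl14* OE on day 15, and so passed the filter only through the group in which it was high and had to differ there. Without it the count is 5, and nothing is read from its test. The members were chosen for rising on the late days of Control OE, which ran the same time course. On day 15, 0.115% of all genes were called higher and 0.107% lower between *Mettl14* OE and Control OE. A rise in *Mettl14* OE was therefore likely beforehand, and nothing is read from the count of members called in this step.

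*Saa3* had the largest change of the members. It lay at 0.870, 4.49 and 3.59 FPKM on day 12 in *Mettl14* OE and at 20.2, 29.9 and 11.9 FPKM on day 15, without overlap. The change was 2.50 on the log2 scale (SE 0.42, limma adjusted p 5.65e-05). *Lcn2* went from 1.02, 2.09 and 1.33 FPKM to 3.36, 10.2 and 5.70 FPKM, a log2 change of 1.5 (SE 0.25, limma adjusted p 4.13e-05), also without overlap.

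*C3* rose from 4.37, 3.84 and 6.05 FPKM to 15.8, 14.2 and 7.96 FPKM, a log2 change of 1.22 (SE 0.24, limma adjusted p 3.73e-04). *Saa1* rose from 42.03, 57.4 and 43.1 FPKM to 99.8, 104 and 100.45 FPKM, a log2 change of 1.09 (SE 0.17, limma adjusted p 1.11e-05). In both genes each day 15 library was above each day 12 library, and the day 15 libraries of *Saa1* lay close together while those of *C3* spread widely.

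*Ltf* went from 0.537, 0.355 and 0.0795 FPKM to 1.51, 1.39 and 1.86 FPKM, a log2 change of 0.98 (SE 0.17, limma adjusted p 6.88e-05). *Hp* went from 2.31, 3.37 and 2.26 FPKM to 4.76, 10.05 and 3.09 FPKM, a log2 change of 0.82 (SE 0.24, limma adjusted p 0.009), with overlap. The call of *Hp* rested on single libraries. Without replicate 2 of day 15 the change was 0.43 (limma adjusted p 0.166), and without replicate 3 of day 12 it was 0.75 (limma adjusted p 0.0561). *Cp* had a log2 change of 0.44 (SE 0.15, limma adjusted p 0.0245) and *Saa2* one of 0.20 (SE 0.16, limma adjusted p 0.342).

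Of these changes, 5 were without overlap between the days, which 37.7% of all genes also were upward. The median of all genes tested was itself 0.15 on the log2 scale, and it became 0.03 after median-ratio scaling, under which the same 6 members were called.

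**Figure D2:**
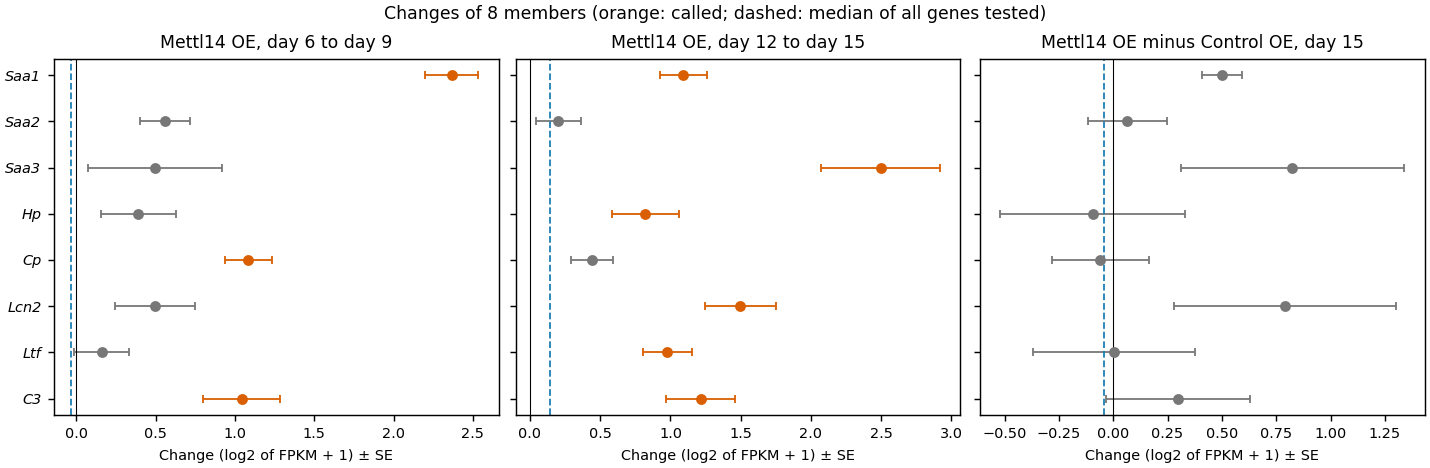
Change in log2(FPKM + 1) of the 8 testable members (points) with its standard error (bars) within *Mettl14* OE (day 6 to day 9, then day 12 to day 15) and for *Mettl14* OE minus Control OE on day 15. Orange points were called, and the dashed line is the median of all genes tested. Calls number 3 in the first panel and 6 in the second, and in the third no member was called.

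From day 6 to day 9 in *Mettl14* OE, 3 members were called higher and none lower, against 6.42% of all genes called higher and 3.66% called lower. *Saa1* went from 6.12, 7.51 and 4.98 FPKM to 33.5, 44.96 and 30.4 FPKM, a log2 change of 2.37 (SE 0.17, limma adjusted p 2.49e-13). *Cp* went from 1.63, 1.28 and 1.25 FPKM to 4.49, 4.33 and 3.41 FPKM, a log2 change of 1.08 (SE 0.15, limma adjusted p 4.08e-07). *C3* went from 1.06, 0.607 and 0.557 FPKM to 3.78, 2.30 and 1.86 FPKM, a log2 change of 1.04 (SE 0.24, limma adjusted p 8.67e-04). Including these 3, 6 of the 8 testable members were higher on day 9 without overlap, as were 20.9% of all genes. In Control OE, which ran the same time course, 6 of the 8 were also higher on day 9 without overlap. The members were chosen for rising late in that arm, so a rise here was likely beforehand. Nothing is read from the counts in this step either.

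The others without overlap were *Saa2*, *Lcn2* and *Hp*. *Saa2* went from 0, 0.0828 and 0.118 FPKM to 0.561, 0.8 and 0.373 FPKM. *Lcn2* went from 0, 0.0516 and 0 FPKM to 0.907, 0.390 and 0.118 FPKM, and *Hp* from 0.0614, 0.0293 and 0.0833 FPKM to 0.431, 0.507 and 0.236 FPKM. At such levels the pseudocount of 1 makes the log2 change small, and with one of 0.1 these 3 genes were called too, 6 in all. *Saa3*, *Lcn2*, *Hp* and *Ltf*, called from day 12 to 15, stood at or below 1.69 FPKM in every *Mettl14* OE library of day 9, and their changes from day 6 to day 9 were 0.16 to 0.50 with limma adjusted p-values of 0.111 to 0.481. Whether the changes differed between these steps was not tested. *Saa2* changed by 0.56 (SE 0.16, limma adjusted p 0.00479), under the fold threshold. From MEFs to day 3 in *Mettl14* OE no member was called, against 13.1% of all genes called higher and 7.2% called lower. At an unadjusted p under 0.05 there were 2, against 55.7% of all genes: *Cp*, which changed by -0.52 (SE 0.15, limma adjusted p 0.00346), and *C3*, by -0.53 (SE 0.24, limma adjusted p 0.0688). With a pseudocount of 0.1 in place of 1, *Cp*, *C3*, *Hp* and *Lcn2* were called lower on day 3 than in MEFs.

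*Mettl14* OE was next compared with Control OE on each day, over the 9 libraries of a day. The Control OE libraries here are also those used to choose the members. On days 3, 6, 9, 12 and 15, 0, 3, 4, 6 and 8 of the 10 members could be tested, and no member was called on any day. Of all genes tested, 0.0101% were called higher and 0.0101% lower on day 3, 0.00866% higher on day 6, 0.017% on day 9 and 0.0168% on day 12, with none lower on these 3 days, and 0.115% higher and 0.107% lower on day 15. At an unadjusted p under 0.05 there was 1 member on day 12 (*Lcn2*, 0.41, limma adjusted p 0.18) and 1 on day 15 (*Saa1*), where 24.5% and 17.0% of all genes were, so these counts do not exceed the background.

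On day 15 *Saa1* was the single testable member without overlap between the arms, at 99.8, 104 and 100.45 FPKM in *Mettl14* OE against 70.7, 72.4 and 70.9 FPKM in Control OE, where 6.47% of all genes were higher without overlap. The ratio of the means was 1.42 and the log2 difference 0.50 (SE 0.09, limma adjusted p 0.0176), which passes the p threshold but not the fold. The adjusted p did not hold up in every fit: it was 0.116 with all 48 libraries in the fit and 0.0764 without the filter on low values. Without single libraries it was 0.0315 to 0.087, and it exceeded 0.05 without replicate 2 or 3 of *Mettl14* OE (0.087 and 0.0544) and without replicate 1 of Control OE (0.0713).

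*Saa3* (20.2, 29.9 and 11.9 FPKM against 8.64, 9.56 and 13.95 FPKM) had a larger difference of 0.82 but a wide error (SE 0.52, limma adjusted p 0.461). *Lcn2* (3.36, 10.2 and 5.70 FPKM against 2.66, 1.495 and 5.92 FPKM) differed by 0.79 (SE 0.51, limma adjusted p 0.475). In both genes the arms overlapped. *C3* differed by 0.30 (SE 0.33), *Saa2* by 0.06 (SE 0.18), *Ltf* by 0.00 (SE 0.37), *Cp* by -0.06 (SE 0.22) and *Hp* by -0.09 (SE 0.43), all with limma adjusted p-values of 0.692 or above. These errors leave room for differences of either sign.

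*Cfb*, too low to be tested, lay at 0.546, 0.482 and 0.173 FPKM in *Mettl14* OE on day 15, below the 0.894, 0.665 and 1.13 FPKM of Control OE without overlap. The shares of all genes given here cover only genes that passed the filter, so nothing is read from this separation of *Cfb*. Whether the effect of *Mettl14* OE on day 15 differed from that on day 12 was tested directly. This contrast contains the rise of Control OE from day 12 to 15 by which the members were chosen, so nothing is read from its outcome. No member was called, where none of all genes were called higher and 0.00785% were called lower. No member had an unadjusted p under 0.05, and the difference for *Saa1* was 0.44 (SE 0.24, limma adjusted p 0.963).

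**Figure D3:**
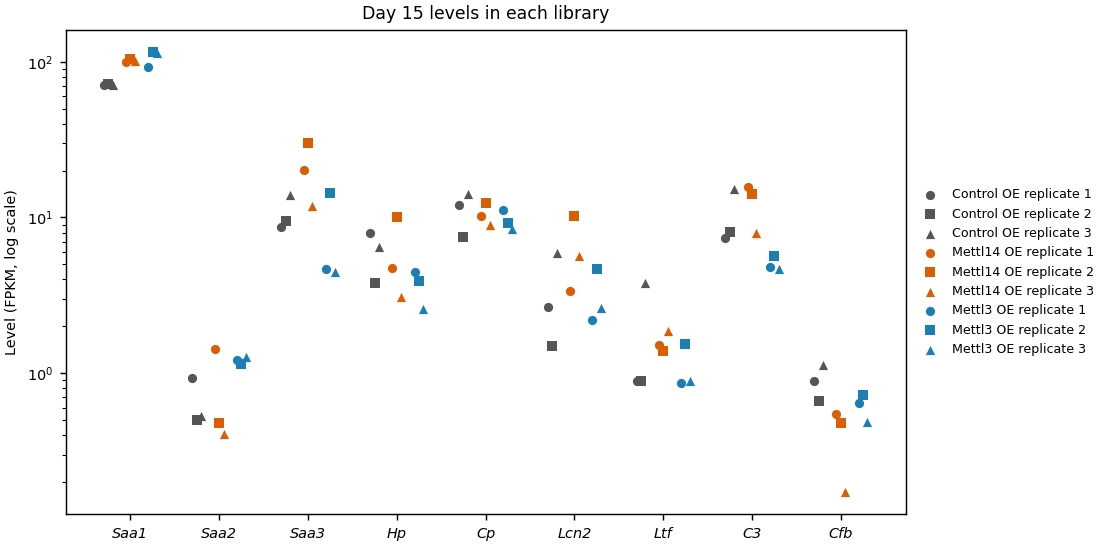
Levels on day 15 (FPKM, logarithmic axis) of 9 members in each library, with colours for the arms and symbols for the replicates. *Saa1* in *Mettl14* OE and *Mettl3* OE, at 92.4 FPKM and above, lies over the 70.7 to 72.4 FPKM of Control OE, whereas *C3* in *Mettl3* OE, at 4.64 to 5.63 FPKM, lies under the other arms.

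The members did not stand on one side of Control OE in *Mettl3* OE. *Saa1* was higher, not lower: it lay at 70.7, 78.9 and 80.2 FPKM in *Mettl3* OE on day 9, where Control OE did not exceed 41.4 FPKM. On day 12 it lay at 85.3, 92.6 and 49.5 FPKM, all above Control OE, with replicate 3 far below the others. On day 15 it lay at 92.4, 115 and 114 FPKM. The ratios of the means were 1.97, 1.68 and 1.5. *Saa2* was also higher on day 15, at 1.21, 1.15 and 1.27 FPKM, without overlap with Control OE (0.499 to 0.934 FPKM). This goes against the wording of the rule for both genes.

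*C3* was lower in *Mettl3* OE, at 1.63, 1.20 and 0.915 FPKM on day 9 against 2.73, 3.57 and 4.66 FPKM. On day 15 it lay at 4.78, 5.63 and 4.64 FPKM against 7.43, 8.05 and 15.2 FPKM, without overlap on either day. The ratios of the means were 0.342 and 0.490, and on day 12, with overlap, 0.545. *Cp* was lower without overlap on day 6 (1.17, 0.676 and 0.647 FPKM against 2.00, 2.06 and 1.44 FPKM) and overlapped Control OE on every day after that. Below the filter, *Lcn2* was listed at 0 in the 3 libraries of day 6, against 0.0544 to 0.125 FPKM, and *Ltf* lay at 0.163, 0.224 and 0.190 FPKM on day 12, against 0.248, 0.390 and 0.347 FPKM. *Lcn2* in *Mettl14* OE on day 6, at 0 to 0.0516 FPKM, was also below Control OE. A single fragment of *Lcn2* is worth 0.0308 to 0.0888 FPKM. The shares of all genes cover only genes that passed the filter, so nothing is read from these low values.

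On day 15 the arms overlapped in *Hp* (mean 3.65 FPKM in *Mettl3* OE against 6.04 in Control OE), *Ltf* (1.10 against 1.86), *Saa3* (7.85 against 10.7), *Lcn2* (3.17 against 3.36), *Cp* (9.58 against 11.3) and *Cfb* (0.618 against 0.897). *Orm1* was listed at 0 in both. Of the 8 members that passed the filter on day 15, 1 was lower and 2 were higher without overlap, and of all genes 27.8% were lower and 7.67% higher. Among the 2, *Saa2* reached 1 FPKM on day 15 in *Mettl3* OE (1.15 FPKM and above) and in replicate 1 of *Mettl14* OE (1.43 FPKM). Control OE did not exceed 0.934 FPKM, so *Saa2* passed the filter that day only through the group in which it was high. On day 9, 13.3% of all genes were lower and 22.0% higher without overlap, on day 6, 15.6% were lower, and on day 12, 15.8% were higher. As *Mettl3* OE was used to choose the members, nothing is read from these counts. *Mettl14* OE and *Mettl3* OE stood side by side on day 15 in *Saa1*, with means of 101.5 and 107 FPKM and overlapping libraries, and apart in *C3*, with 12.7 ± 4.15 and 5.02 ± 0.535 FPKM (SD, n = 3) and no overlap, as was so for 11.9% of all genes in that direction.

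Within the arms, the day 15 libraries did not rank alike for all members. Replicate 3 of Control OE was the highest of its arm for 5 of the 8 members above the filter, and so was replicate 2 of *Mettl14* OE and replicate 2 of *Mettl3* OE. Over the 18 libraries of days 12 and 15, log2 levels of *Saa3*, *Lcn2*, *C3*, *Hp*, *Cp* and *Ltf* correlated with each other at r = 0.629 to 0.852. *Saa1* correlated with these 6 at 0.34 to 0.677 and *Saa2* at 0.0395 to 0.245. These are descriptions over 18 libraries that share days, arms and a table, and not tests.

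The genes outside the list that were most like it over those 18 libraries, by the correlation of their log2 level with the mean z score of the 8 members, were *Scara5* (r = 0.961), *Tmem176a* (0.947), *C1rb*, *Tap2* and *C1s1* (0.946 each) and *C1ra* (0.943). *Scara5* encodes a ferritin receptor, *Tap2* a subunit of the peptide transporter of antigen presentation, and *C1ra*, *C1rb* and *C1s1* proteases of the first complement component. *Scara5* had means of 63.1 and 96.6 FPKM on days 12 and 15 in Control OE, 67.1 and 108 in *Mettl14* OE, and 67.9 and 92.6 in *Mettl3* OE. *C1s1* had means of 82.3 and 125 FPKM in Control OE, 77.95 and 146 in *Mettl14* OE, and 83.4 and 128 in *Mettl3* OE. The members were chosen for rising late in Control OE, so genes that rise from day 12 to 15 tend to correlate with their score. These correlations are a description and not a test.

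The ligands that induce acute-phase genes were measured in the same libraries. This list and all lists and marker sets that follow were chosen with earlier results of these data known. Their counts of called genes are therefore a description, and nothing is read from them. In the *Mettl14* OE step from day 12 to 15, 4 of the 8 that could be tested (12 listed) were called higher and none lower, with a median log2 change of 0.62 against 0.15 for all genes. Of all genes tested in this step, 4.31% were called higher and 0.196% lower. *Il6*, the main inducer in liver, went from 1.63 ± 0.618 to 6.56 ± 1.90 FPKM (SD, n = 3), a log2 change of 1.52 (SE 0.15, limma adjusted p 2.11e-09). *Tnf* (1.42 to 4.49 FPKM, log2 change 1.17), *Il1a* (0.640 to 2.60 FPKM, 1.13) and *Lif*, which the medium also contained as protein (1.56 to 4.21 FPKM, 1.02), were called as well. Against Control OE on day 15 none of the 8 ligands was called in limma, though 5 had an unadjusted p under 0.05, as had 17.0% of all genes. *Il6* differed by 0.74 (SE 0.17, limma adjusted p 0.0715), at 4.64 to 8.44 FPKM against 3.10 to 3.78. In *Mettl3* OE *Il6* lay at 5.95 to 7.87 FPKM, also above Control OE, in the arm where *C3* was lowest. The part of *Il6* in the levels of the members was not tested.

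None of 11 receptor genes for these ligands, all of which could be tested, was called in either direction from day 12 to 15 in *Mettl14* OE (median 0.34) or against Control OE on day 15 (median -0.09). At an unadjusted p under 0.05 in limma there were 8 in the step, 5 of them also at the adjusted p but under the fold threshold, and 3 against Control OE. Of all genes, 42.3% were under it in the step and 17.0% against Control OE. Among transcription factors of the response and their feedback inhibitors, 6 of 14 testable genes (17 listed) were called higher in that step and none lower. The median was 0.52, and 4.31% of all genes were called higher. *Cebpb*, which encodes the factor first known as nuclear factor for IL-6, rose from 49.7, 71.7 and 46.2 FPKM to 109.97, 116 and 111 FPKM, a log2 change of 1.02 (SE 0.13, limma adjusted p 6.56e-07). The others named are *Nfkbia*, the NF-kB inhibitor (85.5 to 168 FPKM, log2 change 0.97), *Elf3*, an epithelial ETS factor (15.96 to 30.9 FPKM, 0.93), and *Nfkbiz*, the NF-kB cofactor needed for *Lcn2* induction in mouse cells (12.04 to 22.2 FPKM, 0.85). *Stat3* changed by 0.31 (SE 0.09, limma adjusted p 0.0113), under the fold threshold, and *Cebpd* by 0.49 (SE 0.22, limma adjusted p 0.0862). *Socs3*, the feedback inhibitor of IL-6 signalling, changed by 0.09 (SE 0.19, limma adjusted p 0.75).

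Against Control OE on day 15 none of these factors was called in limma, and 7 of the 14 had an unadjusted p under 0.05, against 17.0% of all genes. *Cebpb* differed by 0.50 (SE 0.09, limma adjusted p 0.0157) and *Cebpd* by 0.51 (SE 0.09, limma adjusted p 0.0129), both under the fold threshold and both without overlap. *Cebpb* lay at 109.97, 116 and 111 FPKM in *Mettl14* OE and at 76.2, 74.6 and 86.5 FPKM in Control OE. It lay at 102, 115 and 100.41 FPKM in *Mettl3* OE, so that Control OE was the lowest arm, as it was for *Saa1*. By day 15 means Control OE was also lowest for *Saa2*, whereas *Saa3*, *Lcn2*, *C3*, *Hp*, *Cp* and *Ltf* were lowest in *Mettl3* OE. The part of *Cebpb* in the levels of the members was not tested. *Nfkbiz* differed by 0.33 (SE 0.08, limma adjusted p 0.0778), *Socs3* by 0.19 (SE 0.09, limma adjusted p 0.292) and *Stat3* by -0.12 (SE 0.09, limma adjusted p 0.525).

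Of 22 other positive acute-phase genes, 9 could be tested. In *Mettl14* OE from day 12 to 15, 8 of these were called higher and none lower, against 4.31% of all genes called higher. The median of the 9 was 1.06, against 0.15 for all genes. As this list too was chosen with earlier results known, nothing is read from its count. The largest changes were those of *Lbp*, the lipopolysaccharide binding protein (51.2 to 128 FPKM, log2 change 1.30), *Serpina3n*, a serine protease inhibitor (4.18 to 11.5 FPKM, 1.27), and *Ptx3*, a long pentraxin (7.08 to 17.9 FPKM, 1.25). None was called against Control OE on day 15 in limma, where 2 had an unadjusted p under 0.05, as had 17.0% of all genes. Of 6 negative acute-phase genes, which fall in plasma during inflammation, *Apoa1* alone could be tested, and its log2 change was 0.17 (SE 0.29, limma adjusted p 0.683).

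Of the complement list, 7 of 13 testable genes (23 listed) were called higher in that step and none lower. The median was 0.65, and 4.31% of all genes were called higher. The leading genes were *C1qa* (0.941 to 7.31 FPKM, log2 change 2.1), *C1qc* (1.35 to 7.16 FPKM, 1.80) and *C1qb* (1.04 to 5.48 FPKM, 1.64), whose products form C1q and are made largely by macrophages, and *C4b* (3.70 to 8.52 FPKM, 1.01). Of receptors and partners of the members, 2 of 11 testable genes (18 listed) were called higher and none lower: *Tlr2* (1.5 to 3.92 FPKM, 0.98) and *Cfp*, properdin (0.510 to 1.35 FPKM, 0.65). The receptor *Slc22a17*, through which lipocalin 2 is thought to enter cells, was not among them.

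Against 4.31% of all genes in that step, 4 of 8 testable secreted antimicrobial and glandular genes (19 listed) were called higher and none lower. They were *S100a7a* (3.79 to 8.06 FPKM, 0.93), *S100a9* (0.331 to 1.24 FPKM, 0.76), *Slpi* (0.618 to 1.62 FPKM, 0.69) and *Tcn2* (14.02 to 21.6 FPKM, 0.59). *S100a7a* was the single gene of all these lists called on day 15 between *Mettl14* OE and Control OE, at 8.06 ± 0.391 against 4.28 ± 0.721 FPKM (SD, n = 3), a log2 difference of 0.79 (SE 0.11, limma adjusted p 0.00468).

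Markers of other cell types moved with some of these genes. The summed level of 14 macrophage markers went from 14.5 to 19.7 FPKM on day 12 to 37.3 to 64.3 on day 15 in Control OE, and from 12.9 to 22.7 FPKM to 42.5 to 79.9 in *Mettl14* OE. In *Mettl3* OE it went from 15.4 to 16.8 FPKM to 25.8 to 30.3, below both other arms, as was *C3*. Of 10 macrophage markers tested in the *Mettl14* OE step, 8 were called higher, against 4.31% of all genes, with *C1qa* of the complement list among the 8. Of the defining markers, *Csf1r* was above 0 in all 48 libraries, with a mean of 0.15 FPKM in MEFs and means of 5.05 to 6.7 on day 15. *Adgre1* did not exceed 1.3 FPKM, *Ptprc* 0.413 and *Fcgr1* 0.34, and *Cd163* was at 0 in 35 libraries. The markers differed unequally between the arms on day 15: means of *Lyz2* ran from 6.78 FPKM (*Mettl3* OE) to 19.35 (*Mettl14* OE), those of *Itgam* from 2.30 to 2.43.

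On day 15 the macrophage sum was 64.3, 37.3 and 51.2 FPKM in replicates 1 to 3 of Control OE, 79.9, 52.9 and 42.5 FPKM in those of *Mettl14* OE and 30.3, 25.8 and 28.8 FPKM in those of *Mettl3* OE. Replicate 1, with the highest sum in each arm, was also the highest for 2 of the 8 members: *Saa2* and *Hp* in Control OE, *Saa2* and *C3* in *Mettl14* OE, and *Hp* and *Cp* in *Mettl3* OE. The other 6 members of each arm were highest in replicate 2 or 3. The part of macrophages in the rise of the members was not tested.

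Neutrophil markers, 9 genes that include those stored in granules beside lactoferrin and lipocalin 2, summed to no more than 2.79 FPKM in any library, with *Mpo* and *Elane* each at 0 in 43 of 48 and *Retnlg* in 46. *S100a9*, the only one that could be tested, reached 2.14 FPKM and was called higher in the *Mettl14* OE step from day 12 to 15. Over these days the median neutrophil sum rose from 0.839 to 1.95 FPKM in Control OE. It rose from 0.722 to 1.87 FPKM in *Mettl14* OE and from 0.422 to 0.955 FPKM in *Mettl3* OE. Of hepatocyte markers *Alb* was at 0 in 33 libraries, *Afp* in 38 and *Ttr* in 46, and *Apoa1* reached 5.31 FPKM. The 15 epithelial markers summed to 6.22 to 7.98 FPKM in MEFs and to 1100.0 to 1330.0 FPKM over the arms on day 15. The part of epithelial cells in the levels of the members was not tested either.

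**Figure D4:**
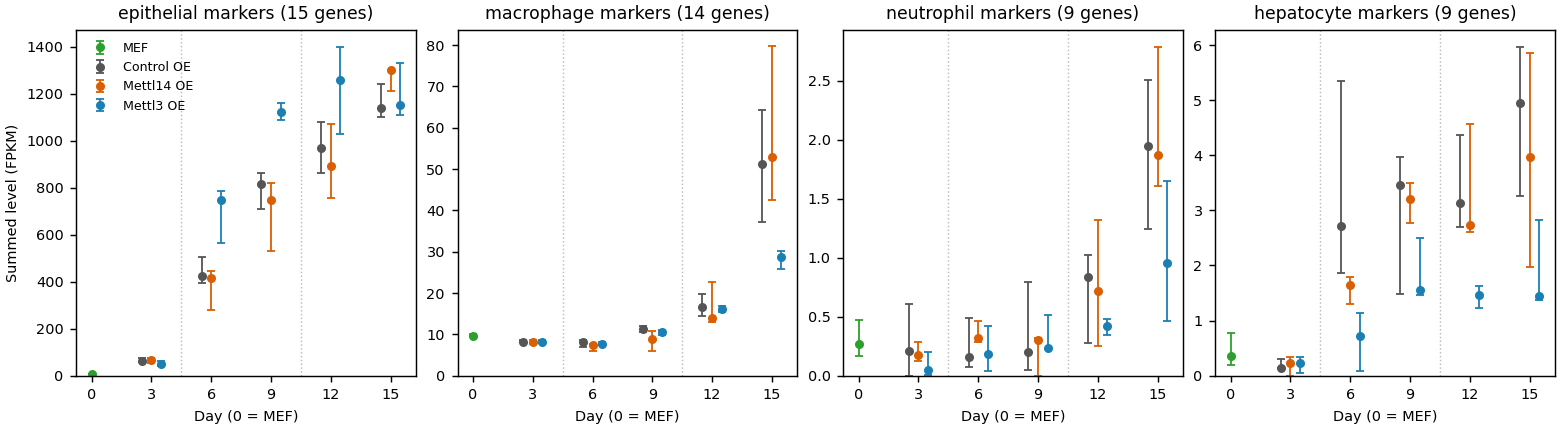
Summed level (FPKM) of epithelial, macrophage, neutrophil and hepatocyte markers against day, as the median of 3 libraries (points) with the lowest and highest library (bars). Dotted lines mark where tables join. The macrophage sum on day 15 is 25.8 to 30.3 FPKM in *Mettl3* OE and at least 37.3 FPKM in the other arms, and the neutrophil sum stays at or under 2.79 FPKM.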

How the data were processed

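The members and the gene lists were chosen with earlier results of these data known. Per the deposited processing notes, TopHat2 2.1.1, Cufflinks 2.2.1 and the build mm9 were used by the authors to obtain the FPKM values. No counts were used. An exact copy of 1 line was dropped, and 27 lines with a date for a name were kept among the 24010 genes. Depth was estimated from the smallest steps of genes with a single transcript, with GENCODE M21 lengths, and limits low FPKM values. Tests used limma 3.58.1 (trend and robust moderation, R 4.3.3) on log2(FPKM + 1). A gene entered a fit if 3 or more of its libraries reached 1 FPKM. The fits were tested on simulated data. The comparison of arms used the 9 libraries of a day, and steps used all 48. Named genes were the members, at most 4 called genes of each list by size of change, *Il6*, *Stat3*, *Socs3*, *Cebpb*, *Cebpd* and *Nfkbiz*, and the 6 genes most like the members. A further gene of the lists is not reported here. *Slc22a17*, *Apoa1* and cell type markers were named apart from this rule. Alternatives varied the pseudocount, filter, scaling, replicate block, libraries fitted and single libraries. Summing *Saa1* and *Saa2* was chosen after seeing the data. Figures were drawn with Python 3.11.15, pandas 2.3.3 and matplotlib 3.10.9.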

Additional observations from a re-analysis of the deposited data

How the results depend on the processing

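No change of a member that was called in the main or the alternative fit reversed its sign. Changes called in neither fit did so in places. Between *Mettl14* OE and Control OE, that of *Saa1* on day 6 was -0.09 and ran from -0.31 to 0.17. That of *Hp* on day 15 was -0.09 and ran from -0.49 to 0.23. Of 282 alternative counts of members called, 276 were within 1.5 times the main count. Most of these were 0 in the main and the alternative fit alike, so this share says little about the steps in which members were called. Between *Mettl14* OE and Control OE no alternative called a member on any day. In the *Mettl14* OE step from day 6 to 9 the count rose from 3 to 6 with a pseudocount of 0.1 and to 5 with 0.5. In the step from MEFs to day 3 it rose from 0 to 4 lower with a pseudocount of 0.1, to 2 with 0.5, to 2 with median-ratio scaling and to 4 with quantile normalization. A smaller pseudocount gives low levels a larger change by construction, and for the scalings the cause was not tested. In the step from day 12 to 15 the count was 5 to 6 over all alternatives. *Hp* lost its call with a pseudocount of 0.1 (limma adjusted p 0.0878) and with only the libraries of its own table (limma adjusted p 0.111). With single libraries left out, the counts were 5 to 6 in that step and 3 to 4 from day 6 to 9. Correlations between arms of the deviations of same-numbered libraries ran from -0.418 to 0.444. They were all positive only for replicate 1 of day 6 (0.165 to 0.444), and the main fits did not pair libraries by replicate number. With the replicate block 3 and 6 members were called, the same genes. Counts over all genes on day 15 between *Mettl14* OE and Control OE ran from 7 to 29 higher (14 in the main fit) and from 7 to 30 lower (13). They ran from 0 to 294 lower on day 9 and from 0 to 37 lower on day 12 (0 in the main fit on both days), and from 1 to 12 higher on day 12 (2). In the steps within *Mettl14* OE they ran from 234 to 797 higher (549) and from 11 to 70 lower (25) from day 12 to 15, from 605 to 1331 higher (818) and from 251 to 912 lower (466) from day 6 to 9, and from 1453 to 2756 higher (1672) and from 630 to 1450 lower (917) from MEFs to day 3. Depth limits *Orm1*, *Cfb*, *Saa2* and *Ltf*, which rest on few fragments, and most members before day 9.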
